A study of Mus musculus with 2 samples.

Results

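The cytosolic ribosomal protein genes encode the proteins that, with ribosomal RNA, build the ribosome of the cytoplasm. They were chosen by symbol: names that start with Rpl or Rps and a digit, plus Rplp0, Rplp1, Rplp2, Rpsa and Fau, without names that hold "-ps" or "Rps6k". Of 102 symbols that start in this way, 15 were dropped, 5 with the pseudogene tag and 10 for S6 kinases. This left 87 of the 32285 genes measured. They comprise 46 standard proteins of the large (60S) subunit, 32 of the small (40S) subunit and 8 paralogues or copies. The last one, Rps19bp1, was caught by its symbol and encodes a binding partner of Rps19, not a ribosomal protein.

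The genes were followed in T cells that had infiltrated EMT6 tumours, a transplantable mouse mammary carcinoma grown under the skin of BALB/c mice aged 4 to 6 weeks. One group received mSTAR1302 into the peritoneum for 2 cycles at 1 dose per week, starting once tumours measured 80 to 150 mm3, and the other group received vehicle. mSTAR1302 joins interleukin-2, which drives T cells to divide, to an antibody that binds the Vβ13-2 and Vβ13-3 chains of mouse T cell receptors. In both groups CD4+ and CD8+ cells were isolated from digested tumours with magnetic beads, and each group gave 1 library of 3′ single-cell RNA sequencing, aimed at no fewer than 50000 reads per cell. How many mice went into a library is not stated in the labels. Each group is 1 library, so a difference cannot be set against replicates and none was tested, and every 95% interval below covers counting error only.

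Ribosomal proteins assemble in the nucleolus with ribosomal RNA, roughly in equal numbers, and proteins made in excess are degraded. In mammals their messenger RNAs share a start known as the 5′ terminal oligopyrimidine (TOP) motif, a run of C and T bases at the very beginning of the transcript through which mTOR signalling controls how strongly they are translated. T cells that leave rest and begin to divide enlarge their stock of ribosomes. The data here give the abundance of these messenger RNAs, and neither the number of ribosomes nor the rate of translation.

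The 2 libraries held 96486469 (mSTAR1302) and 110026997 (vehicle) unique molecular identifiers (UMIs, 1 per captured RNA molecule). After filtering, 9155 mSTAR1302 and 7615 vehicle cells remained, with median depths of 6260 and 8448 UMIs, and 17 barcodes occurred in both. T cells, with at least 2 UMIs of Cd3d, Cd3e and Cd3g together, numbered 8718 in the mSTAR1302 and 6729 in the vehicle library. They were gated as CD8 (6290 mSTAR1302 and 2460 vehicle cells), as CD4 without a Foxp3 UMI, called Foxp3- CD4 cells here (791 and 622), and as CD4 with a Foxp3 UMI, called Foxp3+ CD4 cells (146 and 1365). Foxp3 is the transcription factor that defines regulatory T cells. A Foxp3 transcript can go uncaptured in a cell, so the Foxp3- gate may hold regulatory T cells. With 146 Foxp3+ CD4 cells in mSTAR1302 and 1365 in vehicle, it may hold them unequally. Their number, and their part in the differences of that gate, was not tested. The T cell marker list was present in full in each gate, with 5705 to 6671 UMIs scaled to a total of 1000000 (CPM) in total. It includes Cd3d, Cd3e and Cd3g, which define the T cells here, so their presence was fixed by the rule. Macrophage transcripts were less abundant in the mSTAR1302 gates. The 10 genes of the macrophage and monocyte list summed to 109 CPM in mSTAR1302 against 1067 CPM in vehicle CD8 cells, to 98.4 against 1662 CPM in Foxp3- CD4 cells and to 14.4 against 427 CPM in Foxp3+ CD4 cells. In the last gate C1qa, C1qc, Csf1r and Adgre1 were at 0 in mSTAR1302 and none was at 0 in vehicle. All 5 erythroid markers together stayed below 1 CPM in every gate of both libraries.

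Ribosomal protein transcripts took a larger share of all UMIs in the mSTAR1302 than in the vehicle library in each of the 3 gates. In CD8 cells the share was 29.8% in mSTAR1302 (exact Clopper-Pearson interval 29.82 to 29.84%) and 27.6% in vehicle (27.61 to 27.64%), a difference of 2.21 percentage points. In Foxp3- CD4 cells it was 28.6% in mSTAR1302 (28.58 to 28.66%) and 25.2% in vehicle (25.16 to 25.24%), a difference of 3.42 points. In Foxp3+ CD4 cells, the gate with the lowest share in both libraries, it was 23.7% in mSTAR1302 (23.62 to 23.77%) and 20.4% in vehicle (20.41 to 20.45%), a difference of 3.27 points. Shares of UMIs are relative, so a larger ribosomal protein share goes with a smaller share for all other transcripts together. Leaving out cells with 3 or more UMIs of the macrophage list, a choice made after the data were seen, gave differences of 1.84, 2.99 and 3.33 points. The CD8 gate did not exclude cells with a Foxp3 UMI, and these were unequally common. Without them 6097 of 6290 mSTAR1302 and 2058 of 2460 vehicle CD8 cells remained. The CD8 shares were then 30.0% and 28.3%, a difference of 1.65 points, the smallest CD8 difference of the alternatives tried.

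The same order held in the single cells. The median cell had 29.3% ribosomal protein UMIs in mSTAR1302 and 27.1% in vehicle CD8 cells, 28.2% and 23.2% in Foxp3- CD4 cells, and 22.1% and 18.2% in Foxp3+ CD4 cells. The spread within a library was wide: the middle 80% of cells ran from 20.2 to 37.3% in mSTAR1302 and from 16.2 to 35.9% in vehicle CD8 cells, so the single-cell ranges of the libraries overlap over most of their length. The lower tail was longer in vehicle. Cells with under 10% ribosomal protein UMIs made up 1.86% of mSTAR1302 and 3.98% of vehicle CD8 cells, 1.64% and 10.6% of Foxp3- CD4 cells, and 4.11% and 10.8% of Foxp3+ CD4 cells.

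**Figure D1:**
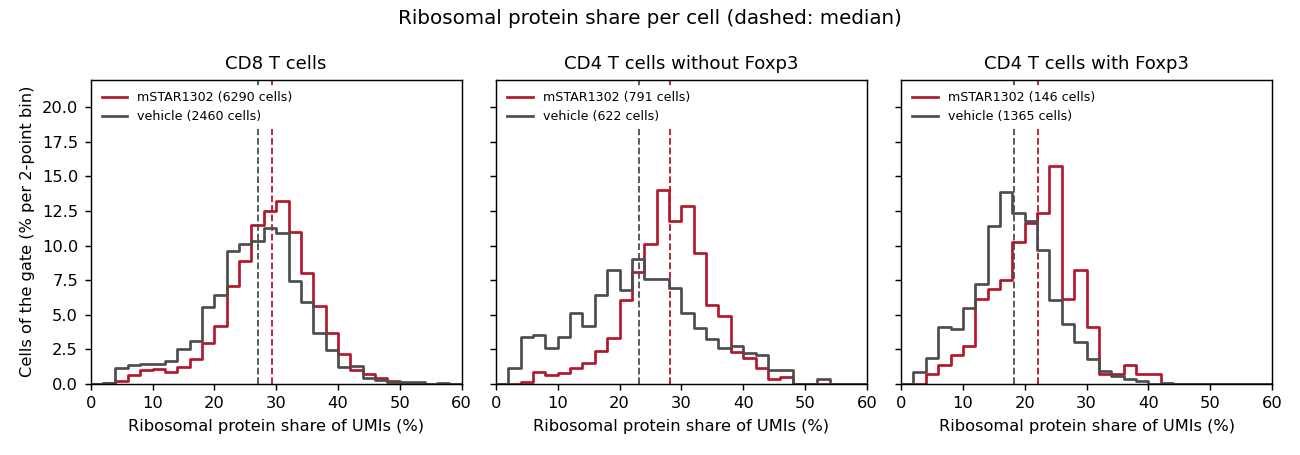
Distribution of the ribosomal protein share of UMIs per cell (x axis, percent) in the 3 gates, as the percent of a gate's cells in each 2-point bin (y axis), with the mSTAR1302 library in red and the vehicle library in grey. Dashed lines mark the medians, which lie at 29.3% and 27.1% (CD8), 28.2% and 23.2% (CD4 without Foxp3) and 22.1% and 18.2% (CD4 with Foxp3), and the vehicle curves have the longer lower tails.

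Depth differed between the libraries, most in the CD8 gate, where the median cell had 6597.5 UMIs in mSTAR1302 and 9865.5 in vehicle. Within bins of cells of like depth the median share was higher in mSTAR1302 in 7 of 7 bins of CD8 cells, 6 of 6 bins of Foxp3- CD4 cells and 4 of 4 bins of Foxp3+ CD4 cells, counting bins with at least 20 cells from each library. In CD8 cells the gap was widest at 2000 to 3000 UMIs. In the shallowest bin, 1000 to 2000 UMIs, it was 3.94 points, with medians of 15.2% in mSTAR1302 (245 cells) and 11.3% in vehicle (61 cells). CD8 cells of 2000 to 3000 UMIs had a median of 25.8% in mSTAR1302 (435 cells) and 10.5% in vehicle (59 cells), and those of 20000 UMIs or more had 29.6% (194 cells) and 28.7% (214 cells). Foxp3- CD4 cells of 2000 to 3000 UMIs had 26.0% in mSTAR1302 (71 cells) and 7.99% in vehicle (38 cells), those of 5000 to 8000 UMIs had 27.8% (269 cells) and 25.5% (242 cells), and those of 12000 to 20000 UMIs had 29.9% (53 cells) and 24.3% (40 cells). The gap thus widened again with depth in that gate, and in Foxp3+ CD4 cells it was 5.27 points at 3000 to 5000 UMIs and 5.17 points at 12000 to 20000 UMIs.

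The shallow vehicle cells also differed in signs of RNA quality. In the bin of 2000 to 3000 UMIs the nuclear transcript Malat1 took a median of 2.01% of UMIs in mSTAR1302 and 4.14% in vehicle CD8 cells, and 2.60% and 8.38% in Foxp3- CD4 cells. Mitochondrial transcripts took 4.09% and 6.49% in CD8 cells of that bin, and 3.92% and 6.24% in Foxp3- CD4 cells. Over whole gates the mitochondrial share was higher in mSTAR1302, at 3.76% against 3.27% in vehicle CD8 cells, 4.09% against 3.48% in Foxp3- CD4 cells and 3.65% against 2.75% in Foxp3+ CD4 cells. Malat1 was lower in mSTAR1302, at 1.85% against 1.93%, 2.08% against 3.05% and 1.92% against 2.50% in those gates. The part of these differences in the ribosomal protein share was not tested. When only cells with 5000 to under 12000 UMIs were kept, a window chosen after the data were seen, the summed difference was 2.77 points in CD8 cells, 1.89 points in Foxp3- CD4 cells and 3.76 points in Foxp3+ CD4 cells. With each cell thinned at random to 3000 UMIs the median share was 29.8% in 5610 mSTAR1302 and 27.4% in 2340 vehicle CD8 cells, 28.6% in 690 and 24.6% in 545 Foxp3- CD4 cells, and 22.3% in 134 and 18.6% in 1289 Foxp3+ CD4 cells. This left out 680 and 120, 101 and 77, and 12 and 76 shallower cells of the mSTAR1302 and vehicle libraries in those gates.

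**Figure D2:**
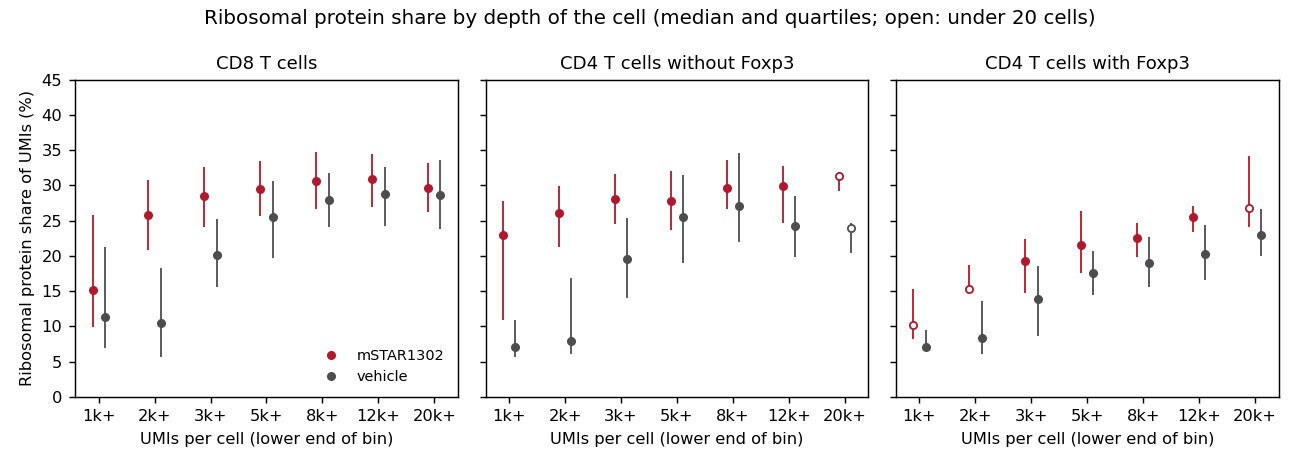
Median ribosomal protein share of UMIs per cell (y axis, percent) by depth of the cell (x axis, lower end of the bin, in units of 1000 UMIs), for the mSTAR1302 (red) and vehicle (grey) libraries. Bars span the quartiles and open symbols mark fewer than 20 cells. The mSTAR1302 median lies above the vehicle median in each bin, with gaps in CD8 cells of 15.3 points at 2000 to 3000 UMIs and 0.90 points at 20000 UMIs or more.

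Other barcodes place these shares. Ungated T cells, those holding Cd4 together with Cd8 UMIs, had 27.8% in mSTAR1302 and 23.5% in vehicle, and T cells with neither had 26.1% and 22.2%. Near-empty droplets of 10 to 100 UMIs, which sample free RNA, had 28.2% in mSTAR1302 and 26.5% in vehicle. Macrophage-like barcodes, with no Cd3 UMI and at least 100 UMIs of the macrophage list, had a lower share in mSTAR1302, at 17.7% in mSTAR1302 (15 barcodes) and 20.8% in vehicle (79 barcodes). Of the 84 members that passed the level filter there, 4 were higher in mSTAR1302, against 37.6% of all genes. The members' median log2 ratio there was -0.22 and that of all genes -0.20, so the medians lay close together.

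Cells in different functional states were compared after thinning to 3000 UMIs, by whether they held a UMI of a state gene. CD8 cells with Mki67 or Top2a, which mark dividing cells, had a lower median share than those without, at 28.2% against 30.3% in mSTAR1302 and 25.3% against 27.9% in vehicle. Foxp3- CD4 cells showed the same order, at 26.9% against 28.9% in mSTAR1302 and 21% against 25.4% in vehicle. In Foxp3+ CD4 cells the order was the other in mSTAR1302, at 23.5% with and 21.9% without such a UMI (55 and 79 cells), and the shares were close in vehicle, at 18.3% and 18.7%. CD8 cells with Gzmb, the gene of the cytotoxic protease granzyme B, had 29.5% against 30.5% without it in mSTAR1302 and 24.7% against 28.5% in vehicle. Foxp3- CD4 cells that held Gzmb had 27.5% against 29.3% in mSTAR1302 and 18.3% against 26.7% in vehicle. Gzma, the gene of granzyme A, was found in 3084 of 5610 mSTAR1302 and 114 of 2340 vehicle CD8 cells. Its holders had 29.4% in mSTAR1302 and 22.6% in vehicle, and CD8 cells without it had 30.3% and 27.6%. Over the 33 subsets formed by 6 such genes or gene groups, with at least 20 cells in each library, the median share was higher in mSTAR1302 in 33, by 1.43 to 9.23 points.

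Single genes were compared as CPM over the summed UMIs of a gate. A log2 ratio of mSTAR1302 over vehicle was taken after adding 1 CPM to both values, and its 95% interval is the exact conditional binomial one. Genes with a mean of at least 20 CPM over both libraries entered the comparison: 5139 in CD8 cells, 5100 in Foxp3- CD4 cells and 5405 in Foxp3+ CD4 cells. Of the 87 members 84 passed in each gate. The other members, Rpl39l, Rpl3l and Rpl10l, did not pass in any. Rpl39l, a paralogue of Rpl39 known from the testis, reached 2.64 CPM in mSTAR1302 and 3.63 CPM in vehicle CD8 cells. Rpl3l, known from muscle, had 2 UMIs in each library's CD8 cells, and Rpl10l, also known from the testis, had none in any gate.

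Most members were slightly higher in mSTAR1302, and few by much. In CD8 cells 69 of 84 lay above 0, in Foxp3- CD4 cells 70 and in Foxp3+ CD4 cells 81, where 28.3%, 28.1% and 32.3% of all genes did. The members' median log2 ratio was 0.11, 0.21 and 0.21 in those gates, and that of all genes was -0.13, -0.18 and -0.12. Relative to the all-gene median 78, 81 and 82 of the 84 members were higher. The other genes of at least 500 CPM, a level that all 78 standard members reached, had medians of 0.02 (167 genes), 0.13 (171) and -0.03 (190). Of these abundant genes 53.3%, 64.3% and 44.7% lay above 0, more than of all genes in each gate. The large subunit (46 genes) and the small subunit (32 genes) had like medians, 0.10 and 0.12 in CD8 cells, 0.24 and 0.19 in Foxp3- CD4 cells and 0.21 and 0.22 in Foxp3+ CD4 cells. Without the CD8-gated cells that held a Foxp3 UMI, 62 of 84 members lay above 0 in the CD8 gate.

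At a size of at least 25% higher in mSTAR1302, 2 members passed in CD8 cells, against 6.97% of all genes. The counts were 16 in Foxp3- CD4 cells, against 6.88% of all genes, and 11 in Foxp3+ CD4 cells, against 5.83%. As shares of the 84 members these are 2.38%, 19.0% and 13.1%, so the CD8 count lies under the background of all genes and the CD4 counts above it. At least 20% lower were 0, 2 and 1 members, against 22.7%, 34% and 23.4% of all genes. Centred on the median ratio of all genes, the members at least 25% higher numbered 18, 55 and 46, against 11.6%, 16.4% and 12.3% of all genes centred in the same way. Those at least 20% lower numbered 0, 1 and 0, against 13.3%, 17.3% and 13.5%. The SD over genes on the log2 scale was 0.14, 0.20 and 0.13 for members and 0.46, 0.53 and 0.37 for all genes. These sets differ in level: the members' median was 3470, 3231 and 2597 CPM, while all genes enter from 20 CPM. Counting error is larger for scarce genes and adds to the all-gene SD and to the all-gene shares past a fold. Neither was computed over genes of like level, so the narrower SD cannot be called a trait of the members.

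**Figure D3:**
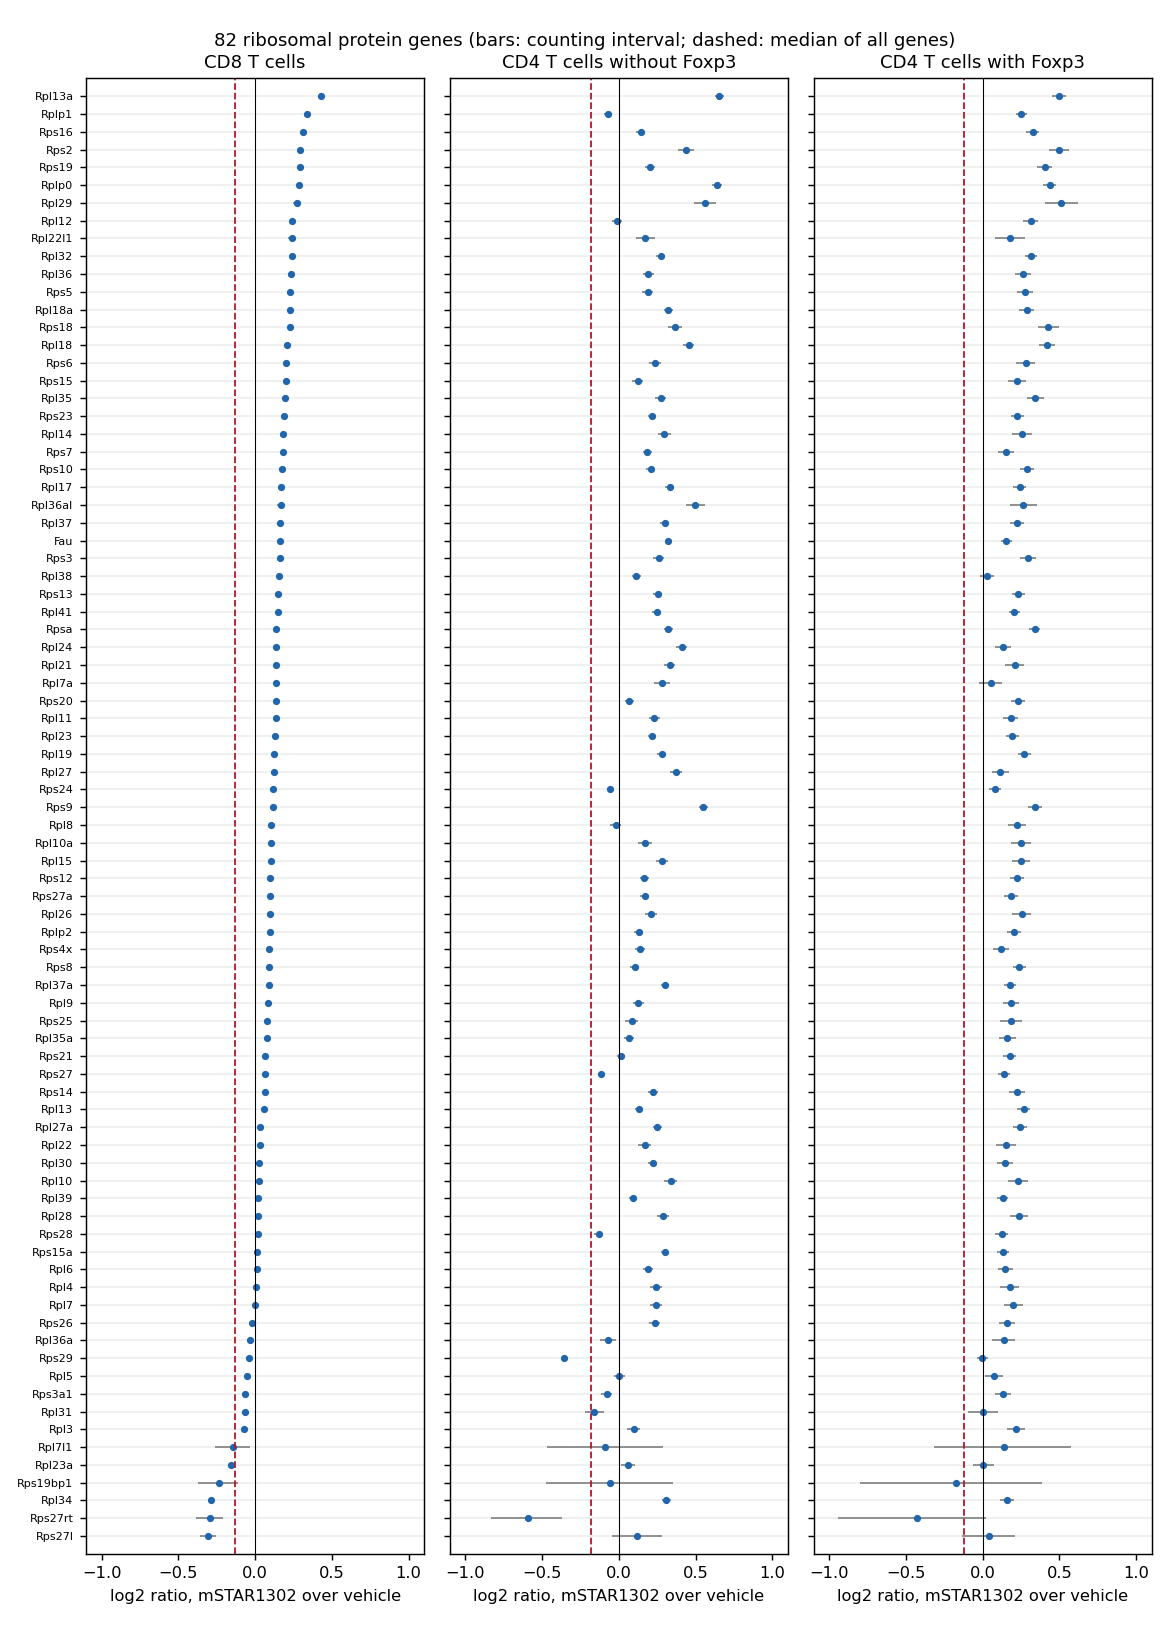
Log2 ratio of mSTAR1302 over vehicle CPM (x axis) for 82 of the 84 ribosomal protein genes that passed the level filter, in the order of the CD8 ratios (y axis), in the 3 gates. Bars are 95% counting intervals, the solid line is 0 and the dashed line is the median of all genes, at -0.13, -0.18 and -0.12. Most points lie right of both lines, with Rpl13a at the top in CD8 cells (0.43) and Rps27l at the bottom (-0.30).

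Across the gates 63 of 84 members were above 0 in all 3, 3 were below 0 in all 3 and 18 were mixed. The gates of a library come from 1 preparation, so they are not replicates. The shares of all genes that kept 1 direction, or passed the 25% rule, in several gates were not computed. The counts of members across gates, here and below, thus have no background. Rpl13a was the only member at least 25% higher in all 3 gates. It encodes a large-subunit protein that in human myeloid cells is known to leave the ribosome after interferon-gamma and to silence inflammatory messenger RNAs. Its gene lies on the minus strand at chr7:45125558-45128761 (GRCm38). Rpl13a had 4848 CPM in mSTAR1302, against 3606 CPM in vehicle CD8 cells (log2 ratio 0.43, 0.42 to 0.44). It had 5503 CPM in mSTAR1302, against 3496 CPM in vehicle Foxp3- CD4 cells (0.65, 0.63 to 0.68), and 3488 against 2468 CPM in Foxp3+ CD4 cells (0.50, 0.45 to 0.54). In near-empty droplets it was higher too, with 4948 CPM in mSTAR1302 and 3469 CPM in vehicle (0.51). None of the 50-base windows in the last 300 bases of its transcript occurs in another annotated gene. Over the alternatives tried its log2 ratio ran from 0.31 to 0.56, from 0.58 to 0.84 and from 0.49 to 0.62 in the 3 gates.

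Windows of 60 bases around annotated transcription starts are shown next, because a C and T run at the start is the feature these genes are known to share. Each window holds 30 bases before and 30 bases from the RefSeq start (GRCm38.p6), on the strand of the gene. Capitals mark the longest unbroken run of at least 8 bases that are each C or T within 15 bases of the start. Rpl13a lies at chr7:45128716-45128775 (minus strand), Rps27 at chr3:90213619-90213678 (minus), Rps16 at chr7:28350659-28350718 (plus) and Rps2 at chr17:24720033-24720092 (plus).
Rpl13a: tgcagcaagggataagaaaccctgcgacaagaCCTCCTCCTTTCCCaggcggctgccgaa
Rps27: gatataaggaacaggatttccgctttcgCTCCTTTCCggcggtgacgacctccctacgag
Rps16: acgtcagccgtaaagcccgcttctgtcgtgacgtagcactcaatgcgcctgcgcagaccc
Rps2: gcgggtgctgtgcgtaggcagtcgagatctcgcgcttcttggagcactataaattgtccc

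Rpl13a has a run of 14 bases and Rps27, a small-subunit protein gene, a run of 9, while Rps16 and Rps2 have none of 8 or more around the start that RefSeq gives. The RefSeq table held 79 start sites of 67 members. Such a run was found at 33 of them (41.8%), against 17.6% of the 32851 start sites of all genes. It was found at 6 of 15 start sites (40%) of a list of other genes taken as having a TOP start. Ribosome assembly genes had it at 4 of 45 start sites (8.89%). A match is a description of the letters, and it does not show where a transcript started in these cells. Where transcripts start elsewhere than in the table, as may be so for Rps2, a gene counted without a run may have one at the start in use, which was not tested. Standard members with a run and without one had like log2 ratios: the medians were 0.10 (30 genes) and 0.13 (28 genes) in CD8 cells, 0.24 and 0.21 in Foxp3- CD4 cells and 0.19 and 0.21 in Foxp3+ CD4 cells.

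Besides Rpl13a, 6 members were at least 25% higher in 2 gates, both CD4 gates in each case: Rplp0, Rpl29, Rpl18, Rps2, Rps9 and Rps18. Rplp0 anchors the P stalk, the lateral arm of the large subunit that recruits elongation factors. It had 5059 CPM in mSTAR1302, against 3249 CPM in vehicle Foxp3- CD4 cells (log2 ratio 0.64, 0.61 to 0.67), and 4192 against 3100 CPM in Foxp3+ CD4 cells (0.44, 0.39 to 0.48). In CD8 cells it had 4575 CPM in mSTAR1302 and 3751 CPM in vehicle (0.29, 0.28 to 0.30). The other stalk genes differed less evenly. Rplp1, one of the acidic proteins bound to Rplp0, had 5756 CPM in mSTAR1302 and 4548 CPM in vehicle CD8 cells (0.34), but 5272 against 5532 CPM in Foxp3- CD4 cells (-0.07). Scaled by the median ratio of all genes, the value in Foxp3- CD4 cells was 0.11 and its direction was thus the other. Rplp2, its partner, had log2 ratios of 0.10, 0.13 and 0.20 in the 3 gates. Rpl12, which sits at the base of the stalk, had 0.24, -0.01 and 0.31.

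Rpl29, a large-subunit protein without which mice survive, had 786 CPM in mSTAR1302, against 533 CPM in vehicle Foxp3- CD4 cells (0.56, 0.49 to 0.63). In Foxp3+ CD4 cells it had 635 against 446 CPM (0.51, 0.40 to 0.62) and in CD8 cells 718 against 594 CPM (0.27, 0.25 to 0.30). Rpl18, another large-subunit protein, had ratios of 0.21 in CD8 cells, 0.46 in Foxp3- CD4 cells and 0.42 in Foxp3+ CD4 cells. In each of these genes the CD8 ratio was the smallest of the 3.

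Among small-subunit proteins Rps2, which lines the channel where messenger RNA enters, had 1612 CPM in mSTAR1302 and 1142 CPM in vehicle Foxp3+ CD4 cells (0.50, 0.43 to 0.56). It had 1472 against 1089 CPM in Foxp3- CD4 cells (0.43) and 1759 against 1433 CPM in CD8 cells (0.30). The CD8 ratio was 0.47 when cells above 20000 UMIs were left out. Rps9, which lies near the same channel, had 5003 against 3418 CPM in Foxp3- CD4 cells (0.55), 3438 against 2714 CPM in Foxp3+ CD4 cells (0.34) and 3972 against 3664 CPM in CD8 cells (0.12). Rps18, in the head of the small subunit, had ratios of 0.23, 0.36 and 0.43 in CD8 cells, Foxp3- CD4 cells and Foxp3+ CD4 cells. Rps19, the gene most often mutated in the human disease Diamond-Blackfan anaemia, had 0.29, 0.20 and 0.40. Rps16, whose tail reaches the transfer RNA in the ribosome, had 0.31, 0.14 and 0.32.

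The members at the low end were fewer and less alike between gates. Rps29, a small zinc-binding protein of the 40S head, had 7047 CPM in mSTAR1302, against 9041 CPM in vehicle Foxp3- CD4 cells (-0.36, -0.38 to -0.34). Scaled by the median ratio of all genes this was -0.18, so it was no longer at least 20% lower. In CD8 cells it had 7790 against 7996 CPM (-0.04), and in Foxp3+ CD4 cells 5541 against 5557 CPM (-0.0041). Rps27, Rps28 and Rps3a1 had -0.12, -0.13 and -0.08 in Foxp3- CD4 cells and 0.14, 0.12 and 0.13 in Foxp3+ CD4 cells. Rpl3, a large-subunit protein close to the peptidyl transferase centre, had -0.07, 0.10 and 0.22 in CD8, Foxp3- CD4 and Foxp3+ CD4 cells. Rpl38 and Rpl7a, also of the large subunit, had 0.03 and 0.05 in Foxp3+ CD4 cells, with intervals that held 0. Relative to the all-gene median of -0.18, Rps27, Rps28 and Rps3a1 were above it in Foxp3- CD4 cells, as was Rpl31 at -0.16, while Rps29 was below it.

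Rpl34, a large-subunit protein gene, had opposite directions in the lineages. It had 5019 CPM in mSTAR1302 and 6117 CPM in vehicle CD8 cells (-0.29, -0.29 to -0.28). In Foxp3- CD4 cells it had 4817 CPM in mSTAR1302 and 3887 CPM in vehicle (0.31, 0.28 to 0.34), and in Foxp3+ CD4 cells 3707 and 3322 CPM (0.16, 0.11 to 0.20). The vehicle CD8 cells thus held the highest of its 6 levels and vehicle Foxp3+ CD4 cells the lowest. The CD8 ratio was -0.15 after centring on the median of all genes, so its direction held there. Of the 50-base windows at the end of its transcript 54.2% occur in other annotated genes.

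The paralogues and copies form a mixed group. Rps27l, a paralogue of Rps27 that p53 is known to induce, had 146 CPM in mSTAR1302 and 180 CPM in vehicle CD8 cells (-0.30, -0.36 to -0.25), 138 and 127 CPM in Foxp3- CD4 cells (0.12) and 242 and 235 CPM in Foxp3+ CD4 cells (0.04). The CD8 value was nearer 0 in subsets of the cells: without cells above 20000 UMIs the ratio was -0.09, without cells holding 3 or more macrophage UMIs -0.07, and among cells of 5000 to under 12000 UMIs 0.00. Rpl22l1 is the paralogue of Rpl22, a protein that developing mouse T cells need. It had ratios of 0.24, 0.17 and 0.18 in the 3 gates, and Rpl22 had 0.03, 0.17 and 0.15. Rpl36al, the autosomal paralogue of Rpl36a, had 1109 CPM in mSTAR1302 against 786 CPM in vehicle Foxp3- CD4 cells (0.50, 0.44 to 0.56), and 0.17 and 0.26 in the CD8 and Foxp3 gates. Rpl36a itself, on the X chromosome, had -0.03, -0.07 and 0.14. The other X-linked members, Rpl10, Rpl39 and Rps4x, had 0.03, 0.02 and 0.09 in CD8 cells, 0.34, 0.09 and 0.14 in Foxp3- CD4 cells and 0.23, 0.13 and 0.12 in Foxp3+ CD4 cells.

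Rpl7l1, a nucleolar paralogue of Rpl7, was near the level filter, with 32.0 CPM in mSTAR1302 and 35.5 CPM in vehicle CD8 cells (-0.14, -0.26 to -0.03). It had 0.14 in the same gate once cells above 20000 UMIs were left out, and its intervals in the CD4 gates held 0. Rps19bp1 had 23.9 CPM in mSTAR1302 and 28.2 CPM in vehicle CD8 cells (-0.23, -0.37 to -0.11), and its intervals in the CD4 gates held 0 as well.

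Rps27rt is a retrotransposed copy of Rps27 with 1 exon, and its reads cannot be told apart from those of Rps27 over most of its end. The coding sequences of both are 252 bases long and identical, and 222 of 251 windows of 50 bases at the end of the Rps27rt transcript occur in Rps27. The same 60-base windows around both starts are printed with capitals on their longest shared stretch of 29 bases, at chr9:114982710-114982769 (minus strand) for Rps27rt and chr3:90213619-90213678 (minus) for Rps27.
Rps27rt: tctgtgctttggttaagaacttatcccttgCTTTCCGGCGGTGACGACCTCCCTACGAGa
Rps27: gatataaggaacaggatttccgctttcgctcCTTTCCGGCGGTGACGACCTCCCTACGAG

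Upstream of the shared stretch the windows differ. Rps27rt had 48.7 CPM in mSTAR1302 and 59.8 CPM in vehicle CD8 cells (-0.29), 53.4 and 81.0 CPM in Foxp3- CD4 cells (-0.59, -0.83 to -0.37) and 32.1 and 43.6 CPM in Foxp3+ CD4 cells (-0.43, -0.94 to 0.02). The levels of Rps27 were 7319 and 7000 CPM in the CD8 cells of mSTAR1302 and vehicle (0.06), and the labels do not state how shared reads were divided in the authors' counting. Copies are common among members: 61 of the 78 standard members share at least 1 window of their last 300 bases with another annotated gene, and 47 share at least 50% of their windows. Across the 78 standard members the ratio bore little relation to the shared percentage, with Pearson's r of -0.14, -0.11 and -0.11 in the 3 gates, given as a description. Relations to the GC content of the transcript were r = 0.38, 0.17 and 0.39 over the same 78 genes, whose GC ran from 41.3 to 60.8%.

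Lists of proteins by their position on the ribosome had medians above 0 in each gate, as the members as a whole did. Of all members 69, 70 and 81 of 84 lay above 0, against 28.3%, 28.1% and 32.3% of all genes. The lists are small parts of the members, and a difference by position was not tested. At the rim of the exit tunnel, where nascent proteins emerge, 5, 6 and 7 of 7 genes were above 0 in CD8 cells, Foxp3- CD4 cells and Foxp3+ CD4 cells, with medians of 0.10, 0.21 and 0.24. Rpl23a, which binds the signal recognition particle, was the lowest of them in CD8 cells (-0.16) and Rpl35 the highest (0.20). At the messenger RNA entry the 3 genes Rps2, Rps3 and Fau were above 0 in each gate, with medians of 0.16, 0.32 and 0.29. At the exit 4, 4 and 5 of 5 genes were above 0, with medians of 0.06, 0.22 and 0.22, Rps28 lowest in Foxp3- CD4 cells (-0.13) and Rpsa highest (0.32). The beak of the small subunit (Rps10, Rps12 and Rps27a) had medians of 0.10, 0.17 and 0.22. Rpl5 and Rpl11, which carry the 5S ribosomal RNA and can bind the p53 regulator Mdm2, had -0.05 and 0.13 in CD8 cells, 0.00 and 0.23 in Foxp3- CD4 cells and 0.07 and 0.18 in Foxp3+ CD4 cells.

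Within each library the lineages could be set side by side. Foxp3+ CD4 cells had lower levels than CD8 cells for 80 of 84 members in both libraries, where 22.4% of all genes were lower in both. The members' median log2 ratio of Foxp3+ CD4 cells over CD8 cells was -0.34 in mSTAR1302 and -0.45 in vehicle, against 0.17 and 0.15 for all genes. At least 20% lower in both libraries were 43 members, against 7.12% of all genes. Rpl35a was the lowest by its value nearer to 0, with ratios of -0.60 in mSTAR1302 and -0.68 in vehicle, and Rps27 followed with -0.57 and -0.64. Rpl41, the shortest protein of the set with a coding length of 75 bases, was close to equal, at 0.01 in mSTAR1302 and -0.05 in vehicle. Rpl35a and Rpl41 are named here after their values were seen.

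Rps27l went the other way and was the only member at least 25% higher in Foxp3+ CD4 cells than in CD8 cells in both libraries. It had 242 CPM in Foxp3+ CD4 cells and 146 CPM in CD8 cells of mSTAR1302 (0.73), and 235 and 180 CPM in vehicle (0.38), where 22.5% of all genes passed this rule. Over Foxp3- CD4 cells its ratio was 0.81 in mSTAR1302 and 0.88 in vehicle. In that comparison 72 of 84 members were lower in Foxp3+ CD4 cells in both libraries, against 22.3% of all genes, with medians of -0.26 and -0.26. At least 20% lower in both were 21 members, against 7.32% of all genes, and 2 were at least 25% higher, Rps27l and Rpl7l1, against 21.9%. Foxp3- CD4 cells over CD8 cells gave smaller differences, with 55 of 84 members lower in both libraries, against 33.2% of all genes, and medians of -0.08 in mSTAR1302 and -0.16 in vehicle. There 2 members, Rpl7l1 and Rpl36a, were at least 20% lower in both, against 5.75% of all genes, and 0 were at least 25% higher, against 5.86%.

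**Figure D4:**
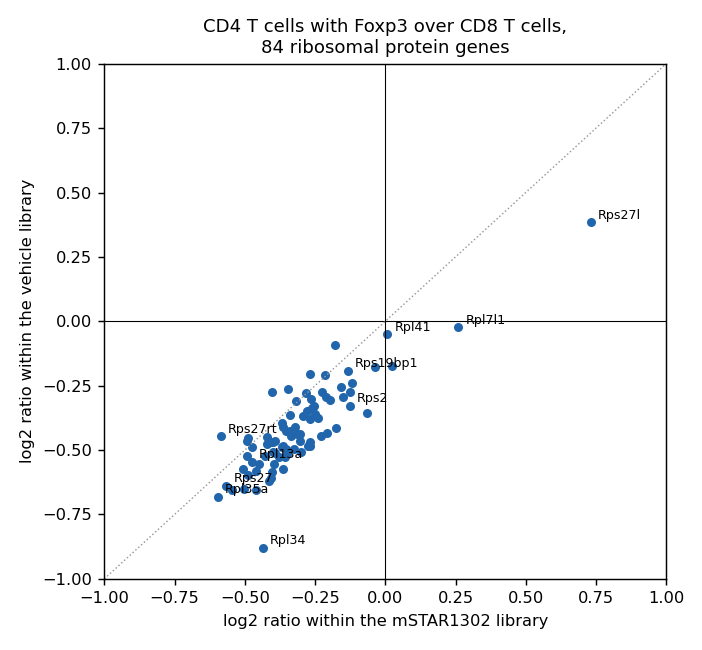
Log2 ratio of CPM in Foxp3+ CD4 cells over CD8 T cells, within the mSTAR1302 library (x axis) and within the vehicle library (y axis), 1 point per ribosomal protein gene (84 genes). The dotted line marks equal ratios. Of the 84 points 80 lie at lower left, below 0 on both axes, Rps27l stands alone at upper right (0.73 and 0.38), and Rpl34 lies lowest in vehicle (-0.88, with -0.44 in mSTAR1302).

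Rack1, a scaffold protein on the small subunit whose symbol the rule does not take, had log2 ratios of 0.10, 0.40 and 0.31 in CD8, Foxp3- CD4 and Foxp3+ CD4 cells. The members fused to ubiquitin or a ubiquitin-like protein had 0.10, 0.17 and 0.18 (Rps27a) and 0.16, 0.32 and 0.15 (Fau).

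A list of other genes taken as having a TOP start was mixed. Most are initiation and elongation factors, but some are not translation factors, such as the genes of a splicing factor and a filament protein. In CD8 cells 4 of 20 were above 0, against 28.3% of all genes, with a median of -0.06, and the ends were Eif4b (-0.50) and Eef1g (0.17), an initiation and an elongation factor. In Foxp3- CD4 cells 14 of 20 were above 0, with a median of 0.19, and 5 were at least 25% higher, against 28.1% and 6.88% of all genes. In Foxp3+ CD4 cells 15 of 20 were above 0, with a median of 0.10, and 3 were at least 25% higher, against 32.3% and 5.83% of all genes.

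The ribosome assembly list, proteins that process ribosomal RNA and put subunits together, had medians of -0.08 (35 genes passing the level filter), -0.30 (30 genes) and 0.01 (32 genes), with 0, 0 and 4 genes at least 25% higher, against 6.97%, 6.88% and 5.83% of all genes. At least 20% lower were 3, 15 and 2 of its genes, against 22.7%, 34% and 23.4% of all genes. In Foxp3- CD4 cells its lowest genes were Mdn1 (-0.71), an ATPase that remodels the large-subunit precursor, and Nolc1 (-0.70), a nucleolar chaperone of small nucleolar RNA particles. The RNA polymerase I list had medians of -0.06, -0.16 and 0.02 over 8 genes, with Ubtf, the factor that opens ribosomal RNA genes, at -0.34, -0.49 and -0.10. At least 25% higher were 0, 1 and 0 of these 8 genes, and at least 20% lower were 1, 2 and 0. The shares of all genes for both rules are those given above. Host genes of small nucleolar RNAs had 0.10, -0.17 and 0.05 over 9 genes, with Snhg12 at 0.59 in CD8 cells and -0.52 in Foxp3- CD4 cells. Translation initiation and mTOR genes had medians of -0.15, -0.33 and -0.06, and ribosome rescue and release genes -0.20, -0.27 and -0.19. The medians of all genes in the 3 gates were -0.13, -0.18 and -0.12.

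**Figure D5:**
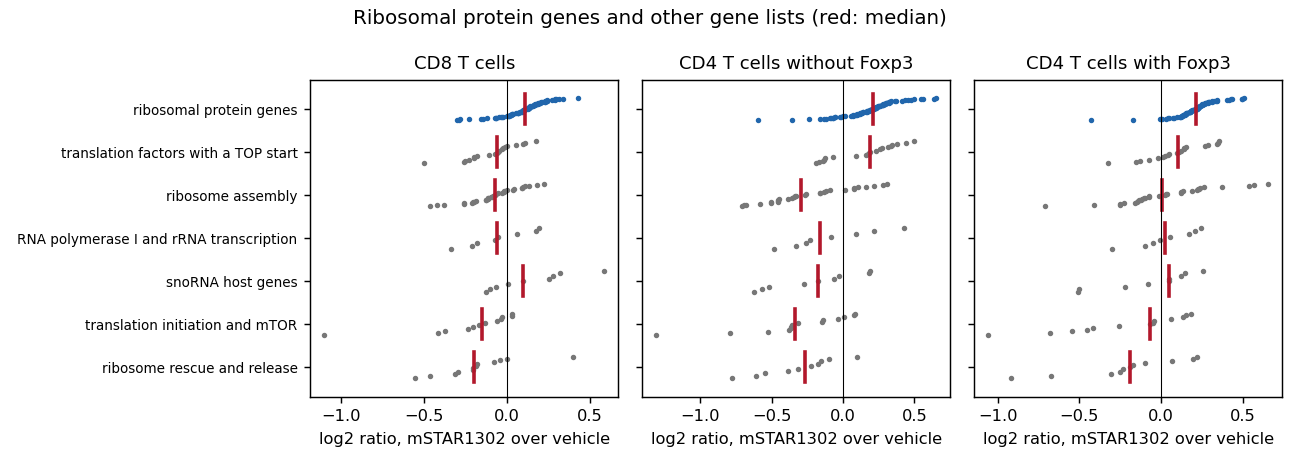
Log2 ratio of mSTAR1302 over vehicle CPM (x axis) for the 84 ribosomal protein genes (blue) and 6 other lists (grey), 1 point per gene that passed the level filter, in the 3 gates. Red bars mark medians, which for the ribosomal protein genes are 0.11, 0.21 and 0.21 and for ribosome assembly genes -0.08, -0.30 and 0.01.

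Lists of T cell state also differed between the libraries in the same gates. Effector genes (Gzma, Gzmb, Gzmk, Prf1, Ccl5 and Nkg7) summed to 6938 CPM in mSTAR1302 and 3179 CPM in vehicle CD8 cells. Genes of naive and quiescent T cells had a median log2 ratio of 0.15 in CD8 cells, -1.04 in Foxp3- CD4 cells and 0.29 in Foxp3+ CD4 cells. Cycling genes had medians of 0.05, -0.28 and -0.16. The part of these differences in the ribosomal protein levels was not tested. Without cells that held Mki67 or Top2a the difference in ribosomal protein share was 2.30, 2.48 and 3.44 points.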

How the data were processed

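For every gene and barcode the authors deposited an unfiltered UMI count. Cell Ranger is named as version 4 in the matrix header but as 6.0.1 in the submitters' processing notes, and which one made the counts is uncertain. Those notes list mm10, Seurat, FastQC and MultiQC 1.9. No source used here gives the release of the gene annotation. Reads shared by near-identical copies could be split or dropped in that counting.

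Barcodes with at least 1000 UMIs, at least 500 genes and at most 10% mitochondrial UMIs were kept. No doublet caller was run, and cells above 20000 UMIs were left out as an alternative. UMIs were summed per gate and library and scaled to CPM, and a mean of at least 20 CPM and a pseudocount of 1 CPM were used for log2 ratios. Thinning to 3000 UMIs used a seed of 1. Shares carry exact Clopper-Pearson intervals, ratios exact conditional binomial ones. UMIs from 1 library are not independent samples of a treatment, so intervals cover counting error only. Labels define the groups, and with 1 library in each no test was made.

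The members, gene lists and rules were chosen with earlier results of these data known. Genes named are, per gate, the 8 members with the highest and the 8 with the lowest log2 ratio, all members of the lists of paralogues, P stalk, 5S particle and X-linked genes and Rps19bp1. Of other lists, genes from among the 2 highest and 2 lowest are named, and not every one of these. Rpl22, Rpl35a and Rpl41 fall outside this rule and were chosen after their values were seen. The ratio and interval code was tested on simulated counts. Gene models came from GENCODE M21 on GRCm38, where all 87 members matched, and start windows from RefSeq (GRCm38.p6). Sequences of proteins were not used here. Trimmed mean scaling factors came from edgeR 4.0.16 and all else from SciPy 1.17.1, NumPy 2.4.6, pandas 2.3.3 and matplotlib 3.10.9 under Python 3.11.15. In all 16 planned and 2 added alternatives were tried. Some genes that this rule would name are not reported here.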

Additional observations from a re-analysis of the deposited data

Results flagged for a closer look

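Rpl34 had a log2 ratio of mSTAR1302 over vehicle of -0.29 in CD8 cells, 0.31 in Foxp3- CD4 cells and 0.16 in Foxp3+ CD4 cells, with counting intervals on opposite sides of 0 in the CD8 and CD4 gates. Rplp1 had 0.34 in CD8 cells and -0.069 in Foxp3- CD4 cells. These 2 genes drew attention because the only library of each group moved in opposite directions in different gates. With 1 library per group the difference was not tested. Scaled by the median ratio of all genes, Rplp1 had 0.11 in Foxp3- CD4 cells, so its opposite direction did not hold there, while Rpl34 in CD8 cells kept its direction at -0.15.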

How the results depend on the processing

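Values are given in the order CD8 cells, Foxp3- CD4 cells, Foxp3+ CD4 cells unless a gate is named, and the cause of each change was not tested. Of the 16 planned and 2 added alternatives, 12, 11 and 11 applied to the share difference and 18, 17 and 17 to the members' median. The share differences and the medians kept their sign in each of these. The added ones, the macrophage and the 5000 to under 12000 UMI subsets, were chosen after the data were seen. The difference in ribosomal protein share ran from 1.65 to 2.77, 1.89 to 4.63 and 3.25 to 3.76 points. It was 2.26 and 3.26 points (first 2 gates) with at least 2000 UMIs per cell, 2.17 and 3.07 with at least 3 Cd3 UMIs, 3.08 and 3.47 (CD4 gates) with at most 5% mitochondrial UMIs, 2.27, 3.20 and 3.70 without cells above 20000 UMIs, 2.33, 4.63 and 3.40 with every cell weighted equally, 2.47, 3.35 and 3.52 after thinning to 3000 UMIs, 2.30, 2.48 and 3.44 without cycling cells, 2.44, 3.73 and 3.59 without mitochondrial UMIs in the total, 1.65 in CD8 cells without those holding Foxp3, 1.84 and 2.99 (first 2 gates) without cells of 3 or more macrophage UMIs, and 2.77, 1.89 and 3.76 for cells of 5000 to under 12000 UMIs. The members' median log2 ratio was 0.24, 0.39 and 0.34 with the median ratio as scale, 0.25, 0.39 and 0.33 with trimmed mean (TMM) factors, 0.16, 0.28 and 0.27 without members in the total, and 0.15, 0.13 and 0.28 for cells of 5000 to under 12000 UMIs. It was 0.29 and 0.24 (CD4 gates) with cells weighted equally, 0.16 and 0.25 (CD4 gates) without cycling cells, 0.087 in CD8 cells without those holding Foxp3, and in Foxp3+ CD4 cells 0.27 without cells above 20000 UMIs and 0.24 after thinning. Members at least 25% higher numbered 18, 55 and 46 with the median ratio, 19, 55 and 45 with TMM factors, 6, 29 and 23 without members in the total and 7, 10 and 31 for cells of 5000 to under 12000 UMIs. They numbered 4, 31 and 18 with cells weighted equally, 5 and 24 (CD8 and Foxp3 gates) without cells above 20000 UMIs, 5 and 22 after thinning and 5 and 19 without cycling cells. Members at least 20% lower numbered 1 and 0 in the CD4 gates with either scale factor and without paralogues and copies. In Foxp3- CD4 cells they numbered 1 with cells weighted equally or members left out of the total. In CD8 cells they numbered 2 without cells above 20000 UMIs, without Foxp3 holders or without macrophage UMIs, and 1 with cells weighted equally, without cycling cells, in the depth window or with no level filter, which gave 2 in Foxp3+ CD4 cells. Of 1402 values of named genes under alternatives 75 had the other sign, none of them for a gene at least 25% higher or 20% lower as reported, and 1327 kept it. Depth limits the scarce members: in mSTAR1302 Foxp3+ CD4 cells Rps27rt had 40 UMIs, Rps19bp1 27, Rpl39l 1 and Rpl3l and Rpl10l 0. No paired analysis was possible because each group is 1 library.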
